A study of Homo sapiens with 18 samples.

Results

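Small nucleolar RNAs (snoRNAs) and small Cajal body RNAs are the short non-coding RNAs followed here. They were chosen as the genes whose symbol began with SNORA, SNORD or SCARNA and whose mean raw count over the 12 parental libraries was 5 or more. The rule took 62 genes, 30 SNORA (box H/ACA), 29 SNORD (box C/D) and 3 SCARNA, out of 763 genes of these 3 names, of which 488 held no count in any library, and out of 57500 genes in all. They were thus selected on their mean raw count, which is given as a description. The libraries came from 2 human cancer cell lines, ES8 from a Ewing sarcoma and Rh30 from an alveolar rhabdomyosarcoma, in 6 groups of 3 replicates (A, B and C). All cells carried dCas9-KRAB, a silencer that an sgRNA directs to a gene, and were kept 72 hours in puromycin after sgRNA transduction. Parental cells received a non-targeting control (sgCTL) or an sgRNA against the 5′ end of DNAJC17 (sgDNAJC17, knockdown). Another set of cells stably expressed a FLAG-tagged DNAJC17 cDNA without its C-terminal RNA recognition motif (ΔRRM) and received sgDNAJC17 as well. By the study's design this sgRNA suppresses the endogenous gene and leaves the cDNA expressed. No parental cells with a full-length cDNA, and no ΔRRM cells with sgCTL, were analysed here.

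Most human snoRNAs lie in introns of other genes. They are cut from the spliced intron after the lariat has been opened, while exonucleases trim the ends up to the bound proteins. Box C/D RNAs bind fibrillarin, NOP56, NOP58 and SNU13 and guide 2′-O-methylation of RNA, whereas box H/ACA RNAs bind dyskerin, GAR1, NHP2 and NOP10 and guide pseudouridylation. SCARNAs guide the same changes on spliceosomal small nuclear RNAs in Cajal bodies. DNAJC17 is a J-domain protein linked to pre-mRNA splicing. The study asked which transcripts change when it is depleted. The libraries were made from polyadenylated RNA, in which a mature snoRNA, having no poly-A tail, is largely missing. Counts on these genes were small, and a read from the mature RNA and a read from the unspliced intron of the host transcript cannot be told apart in counts per gene.

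Library totals ran from 35342393 to 48245989 counts. DNAJC17 itself had 559 to 625 counts in the ES8 sgCTL libraries and 59 to 77 after knockdown, and 461 to 522 and 81 to 113 in Rh30. The ΔRRM libraries held 9849 to 14449 counts on it, where reads from the cDNA fall on the same gene. The lines matched their labels, with summed Ewing sarcoma markers of 63330 to 82905 counts in ES8 and 13950 to 33822 in Rh30, and summed rhabdomyosarcoma markers of 4158 to 6741 in ES8 and 61616 to 139927 in Rh30. Markers of another cell type moved with the sgRNA in Rh30, where 10 epithelial genes held 50 to 66 summed counts in the sgCTL libraries, 483 to 829 in the knockdown libraries and 462 to 585 in ΔRRM cells. Of these genes, 4 passed the expression filter in Rh30 and all 4 rose, and KRT8, a keratin, had 28 to 41 counts with sgCTL and 284 to 486 after knockdown. In ES8 the same sum stayed between 1405 and 2091 in all 9 libraries. Their part in the results below was not tested. In bulk RNA, fewer cells of a kind and less RNA per cell cannot be told apart, and since the replicates were separately plated cells of 1 line, the p-values measure the spread between such platings.

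Box C/D RNAs carry a C box near the 5′ end and a D box near the 3′ end, and box H/ACA RNAs carry an ACA 3 bases before the 3′ end. The ends of the SNORA and SNORD members called up in both lines are shown here for that reason, beside those of SNORD14A, a relative of SNORD14E in another host gene. SCARNA12, also called up in both lines, is not shown. The letters come from the GENCODE reference transcripts, matched by gene identifier, and are written 5′ to 3′ on the RNA's own strand as 30 bases from each end, with the box in capitals. SNORD14E lay at chr11:123058077-123058161 (GRCh38, minus strand), in intron 8 of HSPA8, a constitutive heat shock protein. SNORD67 lay at chr11:46762389-46762499 (minus strand), in intron 33 of CKAP5, a microtubule polymerase. SNORA5A (chr7:45104349-45104482) and SNORA5C (chr7:45104906-45105042) lay in introns 7 and 6 of TBRG4, on the minus strand. SNORA71D (chr20:38433865-38433998, minus strand) lay in intron 2 of the long non-coding gene SNHG17.
SNORD14E, 5′ end: tcacaATGATGAatggtccaaaacattcgc
SNORD14A, 5′ end: tcactATGATGAttggttgccagacattcg
SNORD67, 5′ end: tgtgagaGTGATGAgttgcacactggtgga
SNORD14E, 3′ end: ggcaactaccttccttggatgtCTGAgtga
SNORD14A, 3′ end: tggccagttcttccttggatgtCTGAgtga
SNORD67, 3′ end: atcaagtgcacaggggccatCTGActcaca
SNORA5A, 3′ end: gctcagggataaatttggttacagACAtca
SNORA5C, 3′ end: acctggggataagtttggctgtggACAgtg
SNORA71D, 3′ end: gtccctttcaaactctggagctttctcaca

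In SNORD14E and SNORD14A the C box began at base 6, and both RNAs began with tcac and ended with gtga. Over their whole length these paralogues shared 77.2% of aligned bases, SNORA5A and SNORA5C shared 68.1%, and SNORA71D shared 85.8% with SNORA71C and 82.4% with SNORA71A. The reference record of SNORA71D ended on its ACA, without the usual tail of 3 bases. A C box (ATGATGA or GTGATGA within the first 30 bases, RNA strand only) was found in 20 of the 29 SNORD members (69.0%), in 58.3% of all 331 SNORD genes and in 0 of 388 SNORA genes. A D box (CTGA within the last 30 bases) was found in 26 of 29 SNORD members (89.7%), in 86.1% of all SNORD and 12.1% of all SNORA genes. An ACA 3 bases before the end was found in 22 of 30 SNORA members (73.3%), in 61.3% of all SNORA and 2.42% of all SNORD genes.

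Among the 62 members, 56 lay in an intron of 43 host genes on the same strand, 39 in protein-coding genes, 15 in long non-coding genes and 2 in transcribed pseudogenes. The other 6 had no host intron. SNORA26, SNORA11, SNORD3A and SNORD3B-1 lay outside introns, SCARNA12 (chr12:6967337-6967606) overlapped exons of PHB2, and SNORA53 (chr12:98599635-98599883) overlapped exons of SLC25A3, so that their reads and those of the overlapping messenger RNA cannot be told apart. Genes for ribosomal proteins held 10 members. There were 8 host genes with 2 or more members, which held 21 members in all, with 4 in SNHG17 (SNORA71A to SNORA71D), 4 in SNHG14 and 3 in RPS12. The members had a median length of 133 bases (68 to 758), against 4090 bases for all genes of the same mean count, and a median GC content of 47.7% against 48.7%.

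Expressed per length, the most abundant members were SNORD104 in SNHG25, with a mean of 40.2 CPM per kb over the 18 libraries, and SNORD17 in SNX5, with 19.6 (CPM are counts scaled to a common library total by edgeR's TMM method). SNORA5C and SNORA5A followed at 10.0 and 7.69 CPM per kb, then SNORD14E at 7.44. The 3 SCARNAs reached 4.85 (SCARNA22), 3.18 (SCARNA12) and 1.38 CPM per kb (SCARNA21). In raw counts SNORD17 alone took 15.9% of all reads on members and SNORD104 9.83%. SNORD17 held 87, 82 and 86 counts in ES8 sgCTL and 60, 68 and 106 after knockdown, and 228, 288 and 259 counts with sgCTL and 406, 341 and 326 after knockdown in Rh30. The groups overlapped in ES8 and did not in Rh30, where the log2 fold change was 0.57 ± 0.10, adjusted p = 0.00103 and stayed below the required fold. SNORD104 likewise had 0.19 ± 0.16, adjusted p = 0.395 in ES8 and 0.66 ± 0.14, adjusted p = 0.00274 in Rh30. Neither SNORD104 nor SNORD17 thus reached the required fold after knockdown.

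Over the members as listed, the summed level was higher after knockdown of DNAJC17 in both lines. The rule also averaged over the knockdown libraries, so the sums take in members whose mean count was under 5 with sgCTL. They therefore describe the list and lend the direction no support. The 62 members together had 20.3 ± 0.699 CPM with sgCTL and 36.5 ± 1.70 CPM after knockdown in ES8 (SD, n = 3), 1.80-fold as much. In Rh30 they had 23.8 ± 0.336 and 41.9 ± 1.74 CPM, 1.76-fold as much. Box H/ACA RNAs summed to 8.95 ± 0.573 and 16.7 ± 1.07 CPM in ES8, and to 8.14 ± 0.120 and 17.3 ± 0.932 CPM in Rh30. Box C/D RNAs summed to 9.99 ± 0.280 and 16.6 ± 1.08 CPM in ES8, and to 14.6 ± 0.387 and 22.8 ± 0.553 CPM in Rh30. The 3 SCARNAs summed to 1.37 ± 0.149 and 3.13 ± 0.247 CPM in ES8, and to 1.05 ± 0.0793 and 1.82 ± 0.411 CPM in Rh30. For all members, and for each of the 3 classes, every knockdown library lay above every sgCTL library of its line. With 3 libraries against 3, an exact two-sided permutation test cannot go below p = 0.1. In ΔRRM cells the members summed to 19.0 ± 0.671 CPM in ES8 and 29.0 ± 1.78 CPM in Rh30. Other short genes in introns (27 genes for miRNAs, small nuclear and miscellaneous RNAs) summed to 12.4 CPM with sgCTL and 13.6 CPM after knockdown in ES8, and to 4.68 and 4.49 CPM in Rh30. Histone genes, whose messenger RNAs also lack a poly-A tail, summed to 324 and 377 CPM in ES8 and 482 and 490 CPM in Rh30. Other RNAs without a tail that were listed (RN7SK, RMRP and TERC) held no more than 6 counts in any library.

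**Figure D1:**
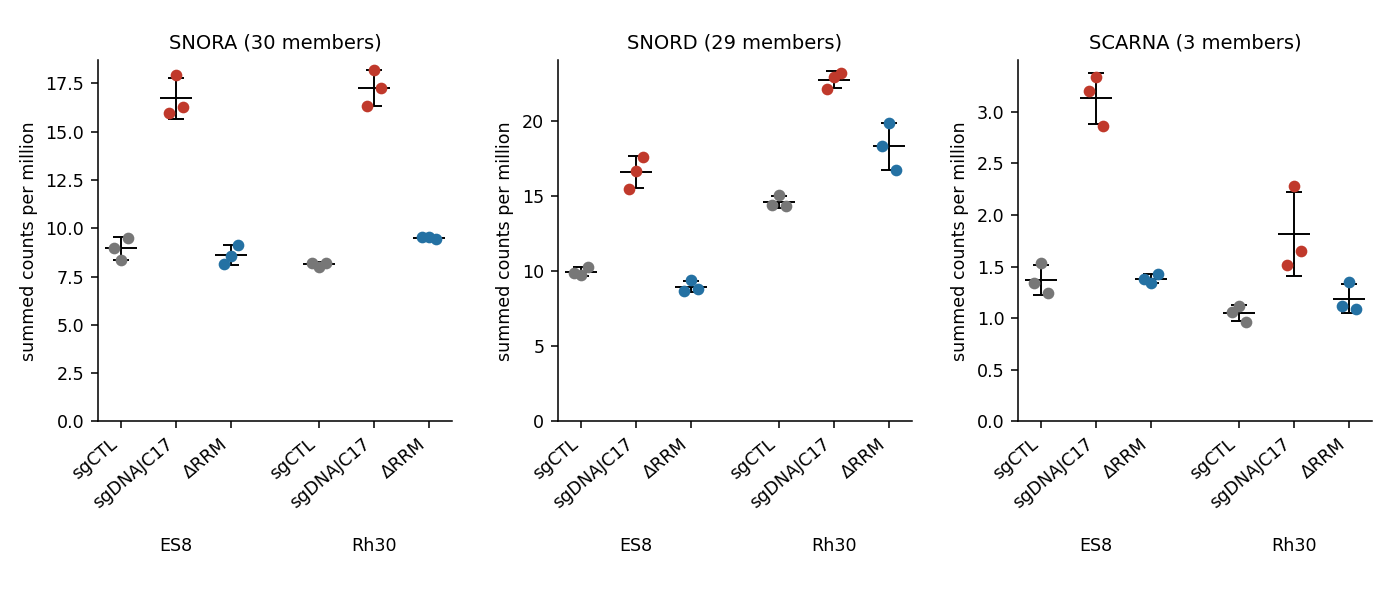
Summed TMM-normalised CPM of SNORA, SNORD and SCARNA members in each of the 18 libraries (points) with the group mean and SD (bars). In both lines the knockdown libraries lie above the sgCTL libraries in each class, and the ES8 ΔRRM libraries lie near the sgCTL libraries.

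Gene by gene, more of the members were higher than lower after knockdown. Because a member can pass a filter on low counts through the knockdown libraries alone, the direction was read over the members that had a mean count of at least 5 with sgCTL. In ES8, 40 of these 51 members had a log2 fold change above 0, with a median of 0.77, beside 46.5% of 19124 genes and a median of -0.03. In Rh30 it was 29 of 35, with a median of 0.61, beside 46.9% of 17077 genes and a median of -0.02. Over the members fitted without any filter, 25 of 29 SNORA, 22 of 29 SNORD and 3 of 3 SCARNA genes were above 0 in ES8, and 28 of 30, 23 of 29 and 2 of 3 in Rh30. The 3 knockdown libraries lay wholly above the 3 sgCTL libraries for 38 of 62 members in ES8 and 28 in Rh30, where the background of all genes with the same mean count was 21.6% and 17.8%. No member had its knockdown libraries wholly below, beside 19.2% of genes in either line. The class and non-overlap counts also take in members whose mean count was under 5 with sgCTL in that line. They therefore lend the direction no further support. All of these counts describe the list, whose members were not drawn independently of earlier results.

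In ES8, 42 members passed edgeR's expression filter and 16 were called up (fold change of 2 or more and adjusted p below 0.05), where 1.66% of all genes tested were called up. They were 10 of 21 SNORA, 4 of 18 SNORD and 2 of 3 SCARNA genes. In Rh30, 28 passed the filter and 10 were called up, with a background of 0.767%. These were 5 of 14 SNORA, 4 of 12 SNORD and 1 of 2 SCARNA genes. The main fits, from which all p-values given here come, took no account of the replicate letter, by which the Rh30 libraries were paired. Calls with the letter as a block are given in the closing section. No member was called down in either line by edgeR or by DESeq2, beside 0.286% of genes in ES8 and 0.786% in Rh30, and 0 had an unadjusted p under 0.05 in that direction. Called up in both lines were 6 members, SNORA5A, SNORA5C, SNORA71D, SNORD14E, SNORD67 and SCARNA12, beside 0.224% of the genes tested in both. The study had itself listed all of these but SNORA71D from these samples, so their direction is not independent evidence. Of the other short intronic genes, 3 of 16 tested were called up in ES8, and 0 of 6 were called up and 1 down in Rh30.

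**Figure D2:**
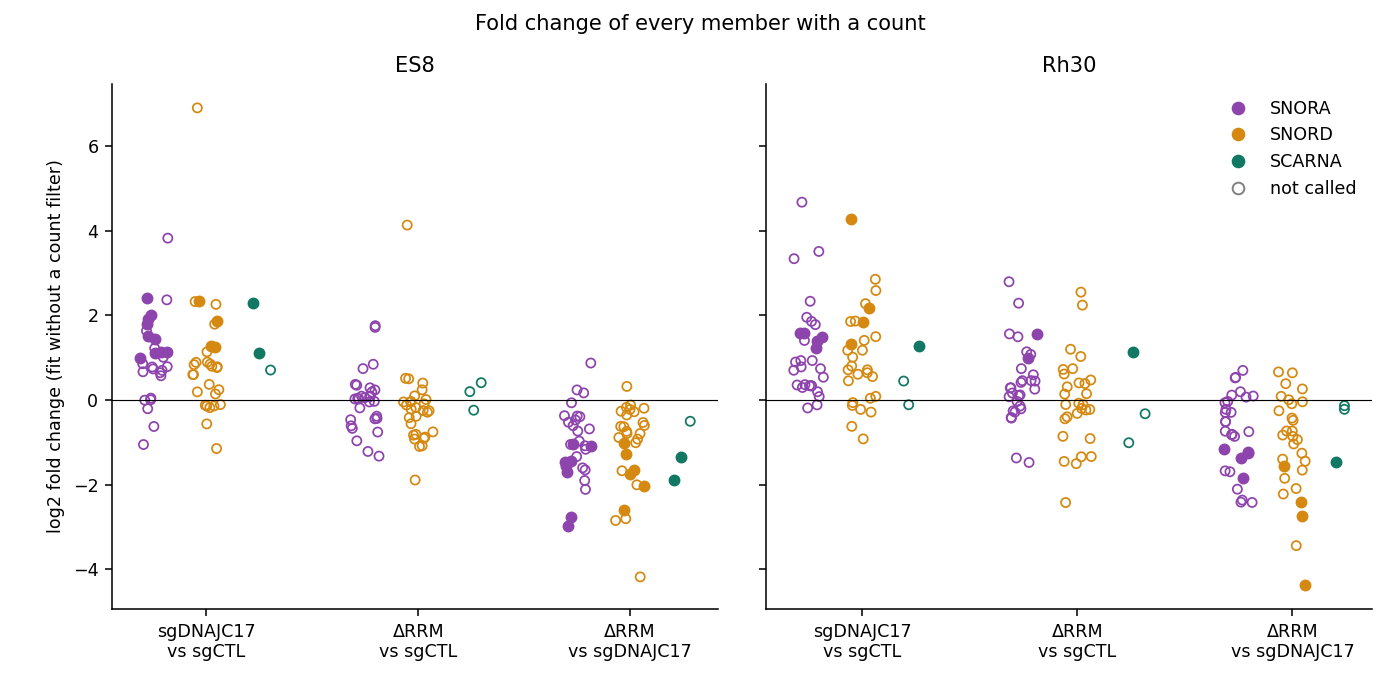
Log2 fold change (y axis, fit without a count filter) of each member with a count, by class and line, for sgDNAJC17 against sgCTL, ΔRRM against sgCTL and ΔRRM against sgDNAJC17, with filled points for members called in the filtered fit. All called members lie above 0 after knockdown and below 0 for ΔRRM against sgDNAJC17, and the largest open points, such as SNORD12C in ES8, rest on a group with 0 counts and set no size.

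SNORD14E, a box C/D RNA, had the largest change in Rh30 and was among the largest in ES8. It held 26, 20 and 19 counts in ES8 sgCTL, 84, 86 and 102 after knockdown and 14, 20 and 16 in ΔRRM cells. In Rh30 it held 2, 2 and 0 counts with sgCTL, 18, 42 and 18 after knockdown and 0, 2 and 1 in ΔRRM cells. The knockdown libraries stood apart from both other groups in each line, and the ΔRRM and sgCTL groups overlapped. It rose by a log2 fold change of 2.33 ± 0.20, adjusted p = 1.49e-04 in ES8 and 4.28 ± 0.70, adjusted p = 6.20e-04 in Rh30 (edgeR quasi-likelihood test, Benjamini-Hochberg adjusted over all genes). With 4 counts in the 3 Rh30 sgCTL libraries, the size of the change in that line is poorly fixed. Its relative SNORD14A, in an intron of RPS13, had 0.61 ± 0.42, adjusted p = 0.316 in ES8 and 1.19 ± 0.51, adjusted p = 0.0921 in Rh30 and passed in neither.

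SNORD67, a box C/D RNA, held 13, 8 and 11 counts in ES8 sgCTL, 20, 24 and 20 after knockdown and 4, 14 and 5 in ΔRRM cells. The Rh30 libraries held 12, 11 and 17 counts with sgCTL, 33, 33 and 29 after knockdown and 5, 18 and 5 in ΔRRM cells. Knockdown libraries lay above all others in both lines, and the log2 fold changes were 1.27 ± 0.32, adjusted p = 0.0164 and 1.34 ± 0.31, adjusted p = 0.00517. Its call in ES8 was lost with a correction for GC content and length (0.97) and without sgCTL B (1.14), sgCTL C (1.27) or knockdown B (1.16).

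SNORA5A and SNORA5C, box H/ACA RNAs in neighbouring introns of TBRG4, rose in both lines. SNORA5A went from 33, 29 and 29 to 46, 55 and 50 counts in ES8 and from 28, 52 and 17 to 93, 104 and 75 in Rh30. Its groups did not overlap in either line, and the log2 fold changes were 1.01 ± 0.21, adjusted p = 0.00667 and 1.59 ± 0.29, adjusted p = 0.00137. SNORA5C went from 35, 47 and 53 to 89, 87 and 69 in ES8 (1.14 ± 0.22, adjusted p = 0.00506) and from 37, 53 and 40 to 111, 76 and 101 in Rh30 (1.24 ± 0.20, adjusted p = 4.93e-04). In ΔRRM cells SNORA5C held 38, 35 and 59 counts in ES8 and 41, 32 and 23 in Rh30, which overlapped the sgCTL libraries. Both ES8 changes lay close to the required fold, and a correction for GC content and length took them to 0.72 for SNORA5A and 0.87 for SNORA5C, below it. Scaling by library size alone (0.96) or 1 fit over all 18 libraries (0.97) also ended the call of SNORA5A. Without sgCTL C or knockdown B its ES8 change was 0.95 or 0.92, and without sgCTL A that of SNORA5C was 0.97.

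SNORA71D is a box H/ACA RNA in SNHG17. It held 3, 5 and 8 counts in ES8 sgCTL and 15, 17 and 15 after knockdown (1.81 ± 0.42, adjusted p = 0.0106), and 5, 5 and 10 counts with sgCTL and 17, 18 and 18 after knockdown in Rh30 (1.49 ± 0.41, adjusted p = 0.0136). Its knockdown libraries were closely alike, while single libraries decided the call, which was lost in ES8 without sgCTL A (1.52) and in Rh30 without sgCTL A (1.35), sgCTL B (1.30) or knockdown B (1.42). The 3 other SNHG17 members had log2 fold changes above 0 in both lines. SNORA71C was called in ES8 (1.11 ± 0.23, adjusted p = 0.00721), but not with the GC and length correction (0.83), and had 0.91 ± 0.27, adjusted p = 0.0196 in Rh30, and SNORA71B was called in Rh30 (1.41 ± 0.24, adjusted p = 8.34e-04) and had 0.79 ± 0.25, adjusted p = 0.0382 in ES8. SNORA71A had 0.65 ± 0.28, adjusted p = 0.109 in ES8 and 0.95 ± 0.29, adjusted p = 0.0214 in Rh30, under the required fold in both. Since these genes are 82.4% to 85.8% identical where compared, reads could be split among them.

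**Figure D3:**
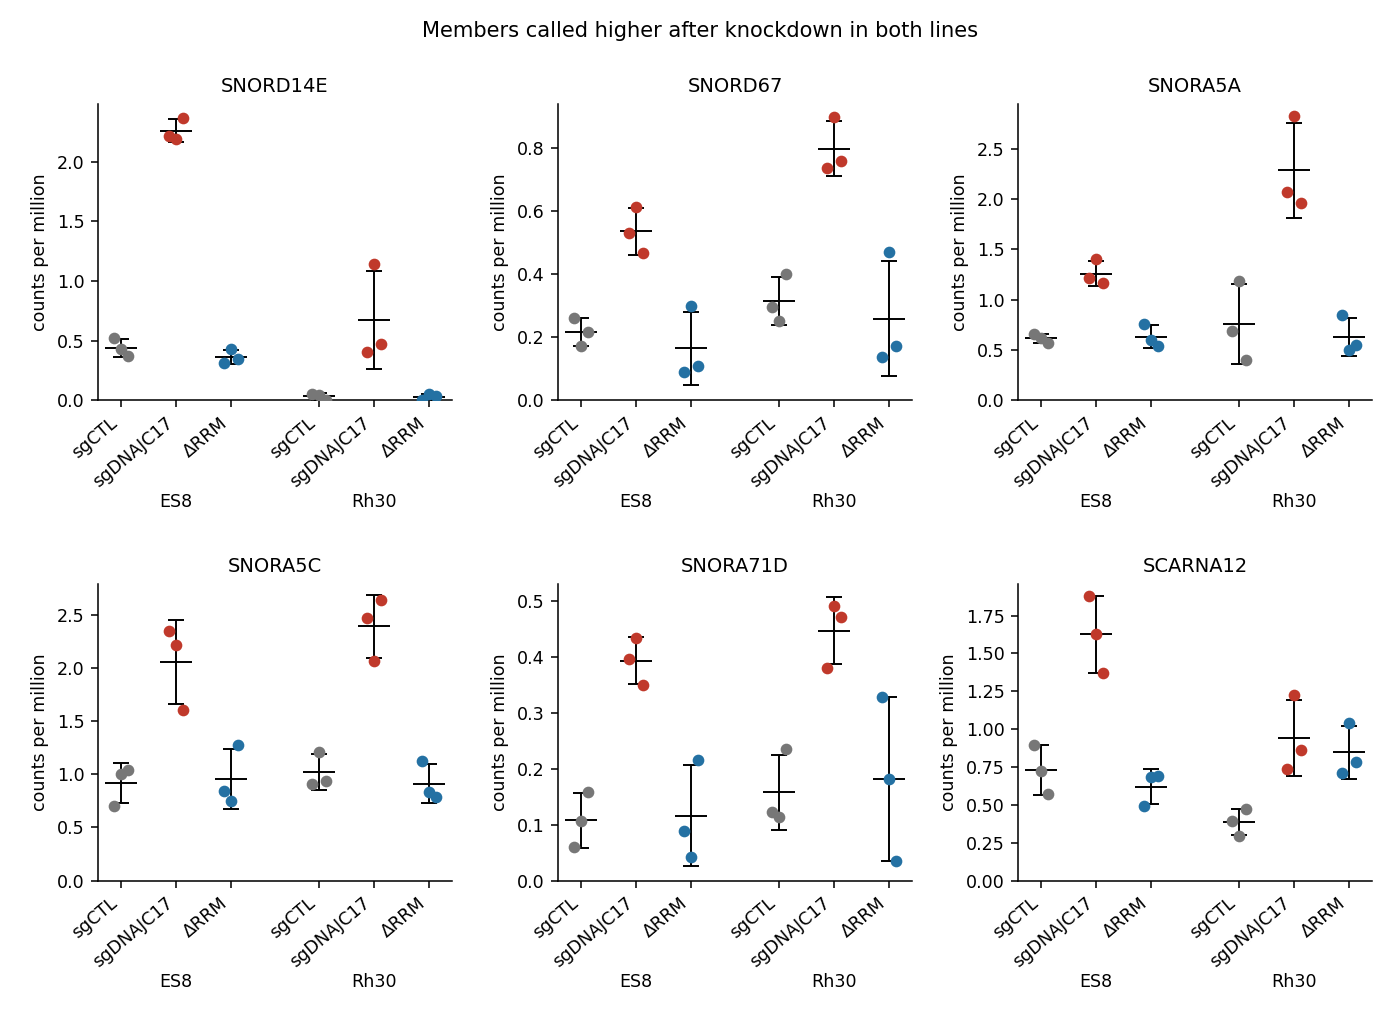
CPM of the 6 members called up in both lines in every library, grouped as sgCTL, sgDNAJC17 and ΔRRM with sgDNAJC17 in each line, with the group mean and SD as bars. The sgDNAJC17 points lie above the sgCTL points in all panels, and the ΔRRM points overlap the sgCTL points, except for SCARNA12 in Rh30, where they lie higher.

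SCARNA12, which guides modification of spliceosomal RNA, held 45, 34 and 29 counts in ES8 sgCTL, 71, 64 and 59 after knockdown and 22, 32 and 32 in ΔRRM cells. In Rh30 it held 16, 13 and 20 counts with sgCTL, 33, 45 and 33 after knockdown and 26, 40 and 23 in ΔRRM cells. It rose with knockdown by 1.12 ± 0.23, adjusted p = 0.00586 in ES8 and 1.28 ± 0.32, adjusted p = 0.00733 in Rh30, and in Rh30 the ΔRRM libraries also lay above the sgCTL libraries. With the GC and length correction in ES8 its log2 fold change was 0.92, without sgCTL C 0.97, and without knockdown B in Rh30 the call was lost at 1.05. SCARNA21, in intron 30 of CHD3, a chromatin remodeller, held 8, 9 and 2 counts in ES8 sgCTL and 22, 34 and 23 after knockdown (2.31 ± 0.46, adjusted p = 0.00541). In Rh30 it was scarce, with 3, 4 and 2 counts with sgCTL and 5, 1 and 2 after knockdown, and was not tested. SCARNA22, in intron 25 of the histone methyltransferase gene NSD2, was not called in either line (0.71 ± 0.32, adjusted p = 0.127 in ES8, 0.46 ± 0.30, adjusted p = 0.262 in Rh30). In Rh30 ΔRRM cells it held 15, 6 and 9 counts, below the 30, 38 and 28 of the knockdown (-1.46 ± 0.39, adjusted p = 7.90e-04).

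Among the members called up in ES8 alone in the main fits, SNORA53 had the largest change. It went from 2, 6 and 6 to 19, 20 and 24 counts (2.41 ± 0.41, adjusted p = 0.00276). In Rh30 it went from 0, 2 and 12 to 16, 18 and 12 (1.79 ± 0.66, adjusted p = 0.0505). These groups touched in raw counts and lay close in CPM, at most 0.282 with sgCTL and at least 0.314 after knockdown. SNORA53 was called there with the replicate letter as a block, which brought the Rh30 calls from 10 to 11. SNORA75, in an intron of the nucleolin gene NCL, went from 2, 2 and 9 to 13, 16 and 15 in ES8 (2.01 ± 0.52, adjusted p = 0.0183), a call lost without sgCTL A (1.66), sgCTL B (1.70) or knockdown B (1.92). SNORA15, in intron 10 of the chaperonin gene CCT6A, went from 4, 3 and 3 to 11, 11 and 10 (1.91 ± 0.44, adjusted p = 0.0105), lost without sgCTL C (1.82). SNORD88A, a box C/D RNA in the transcribed pseudogene C19orf48P, went from 11, 9 and 4 to 18, 26 and 30 (1.88 ± 0.39, adjusted p = 0.00696). For all of these the ES8 knockdown libraries lay above the sgCTL libraries. SNORA73B, in intron 2 of RCC1 and also inside SNHG3, went from 48, 41 and 51 to 66, 114 and 73 in ES8 (1.13 ± 0.24, adjusted p = 0.00723) and stood at 0.89 with the GC and length correction and 0.84 without knockdown B, and had 0.72 ± 0.24, adjusted p = 0.0358 in Rh30. The remaining ES8 calls were SNORA14B (1.51), SNORA42 (1.45) and SNORD3A (1.25). SNORA42 lost its call in 12 of the alternatives tried, and SNORD3A without sgCTL B (1.13), sgCTL C (1.08) or knockdown A (0.96). SNORA14B lost its call without sgCTL B (1.37), sgCTL C (1.17), knockdown B (1.41) or knockdown C (1.45).

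In Rh30, SNORD15B in intron 6 of RPS3 went from 12, 11 and 3 to 41, 32 and 40 counts (2.20 ± 0.38, adjusted p = 9.42e-04). In ES8 it went from 19, 19 and 10 to 22, 20 and 26 (0.77 ± 0.33, adjusted p = 0.112). SNORA65, in intron 2 of RPL12, went from 23, 24 and 19 to 51, 73 and 63 in Rh30 (1.61 ± 0.27, adjusted p = 7.96e-04) and from 18, 16 and 25 to 28, 22 and 34 in ES8 (0.78 ± 0.28, adjusted p = 0.0662). SNORD46, a box C/D RNA, had 1.87 ± 0.51, adjusted p = 0.0125 in Rh30, a call lost without sgCTL C (1.39), and 1.14 ± 0.41, adjusted p = 0.0649 in ES8. RPS3 and RPL12 encode ribosomal proteins. Of the 10 members in such genes, 3 of the 5 tested were called up in Rh30 and 0 of the 9 tested in ES8, beside 0.767% and 1.66% of all genes.

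The difference between the lines was itself tested, as the interaction of line and sgRNA over the 12 parental libraries. A single member of 51 tested passed, where 9.78% of all genes did. It was SNORD3A, the U3 RNA, which acts in the early cuts of the ribosomal RNA precursor. It held 22, 12 and 12 counts in ES8 sgCTL and 39, 23 and 28 after knockdown, and 62, 86 and 84 counts with sgCTL and 63, 52 and 64 after knockdown in Rh30. It was higher in every ES8 knockdown library and overlapped with sgCTL in Rh30, and the log2 effect in Rh30 minus that in ES8 was -1.49 ± 0.39, adjusted p = 0.0196. SNORD3A shares 91.6% of its bases with SNORD3B-1, between which reads could be split. The next smallest p-values belonged to SNORD15B (1.46 ± 0.55, adjusted p = 0.0968), SCARNA21 (-2.36 ± 0.94, adjusted p = 0.115) and SNORD14E (1.97 ± 0.80, adjusted p = 0.122), none of which passed. A call in 1 line alone is thus no evidence that the lines differed.

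Some members held few or no counts with sgCTL. SNORD12C, in intron 1 of ZFAS1, held 0, 0 and 0 counts in the ES8 sgCTL libraries and 7, 13 and 21 after knockdown. With 3 counts over the group taken as the floor for sgCTL, the ratio of counts per library total was 16.04. The spread of the knockdown counts was left out of that ratio. In Rh30 it held 0, 0 and 3 counts with sgCTL and 11, 6 and 6 after knockdown. SNORA28, in intron 6 of EIF5, went from 2, 0 and 0 to 11, 4 and 13 in ES8 and from 1, 0 and 0 to 10, 9 and 14 in Rh30. Neither had enough counts to be tested in the main comparison, and both are named here after their values were seen. At the other end, the 4 members in SNHG14, the long transcript of the Prader-Willi region, were not tested. Without a filter they had a median log2 fold change of -0.35 in ES8, with 0 of 4 above 0, and -0.10 in Rh30.

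The members were next set beside the genes that hold them. In ES8, 37 members in 31 hosts could be tested for the change of the member relative to its host (limma on the log2 ratio per library, adjusted over all 268 embedded non-coding genes). The member lay above its host for 28 of them. The median member had a difference of 0.74 on the log2 CPM scale and the median host 0.18. In all, 7 members were called above their host, where 10.1% of embedded genes were. Among embedded genes that were not members, 20 of 231 were called. The 7 members were SNORD14E (2.54 ± 0.28, adjusted p = 7.91e-09), SCARNA21 (2.15 ± 0.43, adjusted p = 4.42e-04), SNORA75 (1.87 ± 0.48, adjusted p = 0.00535), SNORD88A, SNORD67, SNORA15 and SNORA73B. The last was compared with RCC1 alone and not with SNHG3, inside which it also lies. In Rh30, 22 members in 18 hosts were tested, 19 lay above their host, and 6 were called, with a background of 4.86% of 185 embedded genes and 3 of the 163 that were not members. The 6 were SNORD14E (2.69 ± 0.69, adjusted p = 0.00230), SNORD15B (1.85 ± 0.34, adjusted p = 6.57e-06), SNORD67 (1.59 ± 0.32, adjusted p = 2.88e-05), SNORA5A, SNORA65 and SNORA5C. No member was called below its host in either line, beside 1.12% of embedded genes in ES8 and 0.0% in Rh30.

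Hosts of the named members mostly differed by less than 1 on the log2 scale. The log2 CPM of HSPA8 differed by -0.30 (ES8) and 0.42 (Rh30), that of CKAP5 by -0.61 and -0.34, TBRG4 by 0.18 and 0.10, and RPS3 by 0.31 and 0.26. SNORD67 thus stood higher while its host stood lower in both lines. SNHG17 was higher by 0.92 in ES8 and 1.05 in Rh30, about as much as the SNORA71 RNAs within it, and SNORA71D relative to SNHG17 had 0.62 ± 0.45, adjusted p = 0.371 in ES8 and 0.27 ± 0.48, adjusted p = 0.832 in Rh30. Of the 43 hosts, 1 was called up in each line and 0 down, against 1.66% of all genes up in ES8 and 0.767% in Rh30. The place in the intron was also compared. Of members under 100 bases from the next exon, 4 of 12 tested were called up in ES8 and 3 of 8 in Rh30, beside 9 of 25 and 6 of 14 for those farther away (background 1.66% and 0.767%). The difference between these places was not tested.

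**Figure D4:**
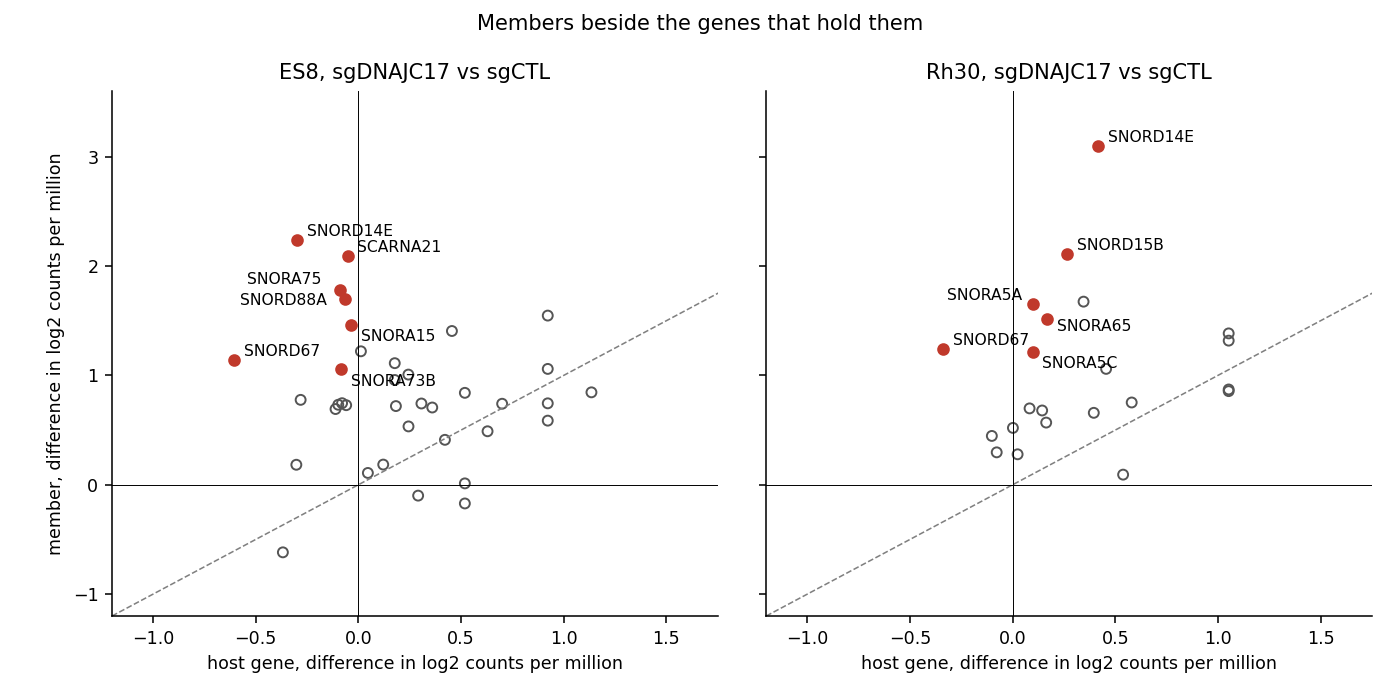
Difference in mean log2 CPM (prior count 2) between sgDNAJC17 and sgCTL for each tested intronic member (y axis) against that of its host gene (x axis), with the line of equal change dashed. Of the members, 28 of 37 in ES8 and 19 of 22 in Rh30 lie above the line, and filled, named points are those called above their host.

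The ΔRRM cells were compared with both parental groups, so these comparisons share libraries with the knockdown and are given side by side. Against sgCTL in ES8, 0 of 32 members were called, at a background of 0.0349% in either direction. At an unadjusted p under 0.05, 2 were lower and 0 higher, and DESeq2 also called 0. The share over all genes at that unadjusted p is not reported here. Of members with a mean count of at least 5 with sgCTL, 19 of 51 were above 0, with a median of -0.12. Among all genes with that count it was 47.7% of 19124, with a median of -0.01. In Rh30, 21 of 35 members with a mean count of at least 5 with sgCTL were above 0, with a median of 0.14. Among all genes with that count it was 46.6% of 17077, with a median of -0.07. Of the 24 members tested in Rh30, 3 were called up and 0 down, at a background of 6.66% up and 3.32% down. The 3 were SCARNA12 (1.17 ± 0.35, adjusted p = 0.00247), SNORA53 (1.60 ± 0.60, adjusted p = 0.0158) and SNORA14B (1.01 ± 0.39, adjusted p = 0.0186). None was called without ΔRRM B, where SCARNA12 stood at 0.98. SNORA53 lost its call in 7 alternatives, among them DESeq2 (1.61), the GC and length correction (0.84) and the fit without sgCTL A (1.04), and stood at 3.66 without sgCTL C. SNORA14B lost it in 8, among them library size alone (0.78), the GC and length correction (0.45) and the fit without sgCTL C (0.79). Scaling by library size alone moved the median of all genes in this comparison from -0.01 to -0.25, and SCARNA12 to 0.94.

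Against the knockdown, 16 of 39 members tested in ES8 were called lower in ΔRRM cells and 0 higher, at a background of 1.49% lower and 0.48% higher. The number depended on single libraries, being 9 without knockdown B and 10 without knockdown C. Calls of named members were also lost without single ΔRRM libraries. That of SNORA14B was lost without ΔRRM A (-1.61), B (-1.69) or C (-1.16), and that of SNORD67 without ΔRRM A (-1.35) or C (-1.42). SNORA75 led (-2.97 ± 0.63, adjusted p = 0.00987), followed by SNORA42 (-2.76 ± 0.60, adjusted p = 0.0110) and SNORD14E (-2.61 ± 0.23, adjusted p = 9.27e-05). In Rh30, 10 of 27 were called lower and 0 higher, at a background of 3.36% lower and 4.42% higher. They were led by SNORD14E (-4.36 ± 0.67, adjusted p = 2.30e-08), SNORD46 (-2.75 ± 0.61, adjusted p = 6.64e-05) and SNORD15B (-2.42 ± 0.41, adjusted p = 3.37e-07). SNORD15B held 6, 6 and 6 counts in Rh30 ΔRRM cells and 2, 10 and 26 in ES8 ΔRRM cells, the latter spread over the range of both parental groups.

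Without knockdown, the lines differed for 11 of 30 members tested, where 28.7% of all genes were called higher and 22.2% lower in ES8. SNORD14E was higher in ES8 (3.72 ± 0.59, adjusted p = 3.03e-07), as was the SNORD63 copy in intron 13 of HSPA9 (3.07 ± 0.59, adjusted p = 8.82e-06), with 23, 10 and 18 counts in ES8 and 2, 1 and 2 in Rh30. SNORD3A (-2.52 ± 0.27, adjusted p = 3.56e-11) and SNORD17 (-1.79 ± 0.14, adjusted p = 5.87e-16) were lower in ES8. SNORA26 was at 0 in all 9 ES8 libraries, where a count of 0 allows 3 counts, and held 12, 9 and 14 in Rh30 sgCTL.

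The genes for the proteins that bind, assemble and trim these RNAs differed by less than the required fold. None of the 32 listed was called in either line. At an adjusted p under 0.05 alone, 6 were higher and 6 lower in ES8, and 12 were higher and 3 lower in Rh30, where 13.6% and 13.8% of all genes passed in ES8 and 16.1% and 16.2% in Rh30. SNU13, of the box C/D proteins, had 0.42 (adjusted p = 0.00246) in ES8 and 0.51 (adjusted p = 1.07e-04) in Rh30, and NOP10, of the H/ACA proteins, 0.31 (adjusted p = 0.0103) and 0.50 (adjusted p = 6.04e-04). DBR1, which opens the intron lariat, had 0.38 (adjusted p = 0.00495) and 0.21 (adjusted p = 0.0254), and the exosome nuclease EXOSC10 -0.23 (adjusted p = 0.0164) and -0.22 (adjusted p = 0.0122). WRAP53, which brings SCARNAs to Cajal bodies, had 0.46 (adjusted p = 0.00218) in ES8 and -0.005 (adjusted p = 0.962) in Rh30. COIL, the scaffold of Cajal bodies, had 0.17 (adjusted p = 0.299) and 0.42 (adjusted p = 5.68e-04).

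At the edge of the rule, the members just inside the mean count of 5 were SNORD63 in intron 11 of HSPA9 (5.25), SNORD64 (5.33) and SNORA26 (5.33), and the genes just outside were SNORA81 (3.83), SNORD91A (4.08) and SNORD93 (4.08). A further 3 snoRNA or SCARNA genes could be named by their position alone and fell outside the rule. SNORD62A (chr9:131485665-131485750) held 12, 15 and 22 counts in ES8 sgCTL and 42, 35 and 56 after knockdown (1.71 ± 0.29, adjusted p = 0.00276), and 11, 9 and 9 counts with sgCTL and 53, 51 and 31 after knockdown in Rh30 (2.30 ± 0.33, adjusted p = 2.71e-04). It rose in both lines, with groups that did not overlap, and it too was listed by the study from these samples. In ΔRRM cells it held 10, 2 and 12 counts in ES8 and 6, 10 and 4 in Rh30. Its neighbour SNORD62B had 1.45 ± 0.22, adjusted p = 0.00149 in ES8 and 0.99 ± 0.23, adjusted p = 0.00480 in Rh30, under the required fold in the latter, and SCARNA10 had too few counts to be tested.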

How the data were processed

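RNA of 18 libraries was analysed. The authors deposited 1 table per library with raw read counts per gene and exon positions, without normalization. Per the labels, reads were trimmed with Trimmomatic 0.36, aligned with STAR 2.5.2b and counted with featureCounts of Subread 1.5.2 on GRCh38. The strand setting, the handling of reads that fit several genes and the annotation release were not given in the sources used here. Totals are given in the report.

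The members and gene lists were chosen with earlier results of these data known. Symbols came from the GENCODE annotation by gene identifier. A host was a longer gene on the same strand with a gap between its merged exons that held the member, and introns are numbered by these gaps. Where several genes fitted, the one with the highest mean count over the parental libraries was taken. The count test was that of edgeR 4.0.16, run under R 4.3.3 (TMM scaling, filterByExpr, quasi-likelihood test), each comparison fitted over all genes with Benjamini-Hochberg adjustment. Calls needed a 2-fold change, as in the study, and an adjusted p below 0.05, and in the interaction the adjusted p alone. Values after ± are standard errors for log2 fold changes and SD for CPM. Member and host were compared with limma 3.58.1 on log2 CPM with a prior count of 2, called at a difference of at least 1.

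Members named in the text were those called in both lines, the 5 largest changes per line, the 3 largest in each ΔRRM comparison, the 3 most abundant of each class, the 3 smallest interaction p-values, those sharing a host with a named member where it holds 3 or more, the 3 nearest the count threshold on each side and the 3 largest differences between lines. All others were named after their values were seen. Alternatives were DESeq2 1.42.0, its size factors, library size alone, other filters, a joint fit of the 18 libraries, a replicate block, a stricter p, no fold requirement, another prior count and each library left out. A GC and length correction with transcripts of the reference, with a lowess span of 0.3, was chosen after seeing the data. Deviations of replicates with the same letter (genes with a mean count of at least 100) correlated at 0.577, 0.287 and 0.348 for letters A, B and C in the Rh30 knockdown, so that the letters pair those libraries. The main fit of that comparison did not use the pairing, and the fit with the replicate block did. Elsewhere 1 or more letters fell short of 0.1 (in the ES8 knockdown -0.136, -0.372 and 0.326). The files name GRCh38 positions, and no genome of their build was used. The host of 1 named member is not reported here. Python 3.11.15, pandas 2.3.3, Biopython 1.88 and matplotlib 3.10.9 were also used.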

Additional observations from a re-analysis of the deposited data

Results flagged for a closer look

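Among the 51 members tested, SNORD3A was the one that passed the test of a difference in knockdown effect between the lines. Its log2 fold change in Rh30 minus that in ES8 was -1.49 (adjusted p = 0.0196, edgeR, interaction of line and sgRNA). The term no longer passed without ES8 sgCTL B (-1.37), ES8 sgCTL C (-1.32) or ES8 sgDNAJC17 A (-1.19). Without ES8 sgDNAJC17 C, 2 members passed.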

How the results depend on the processing

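None of the named members' fold changes reversed. Of 817 alternative values for named members, 698 kept their call and 119 lost it. A setting in which a member was not tested gave no value and is not among the 817. Low counts set the main limit. Where every library had to hold at least 10 counts, fewer members were tested, and the calls were 7 (from 16) for the ES8 knockdown, 6 (from 10) for Rh30, 3 (from 6) for both lines, 1 (from 3) for Rh30 ΔRRM against sgCTL, 7 (from 16) and 4 (from 10) for ΔRRM against knockdown in ES8 and Rh30, 5 (from 11) between the lines and 2 (from 7) against hosts in ES8. Without a filter the Rh30 knockdown had 18, both lines 13 and the line comparison 18. The GC and length correction gave 9 in ES8 with or without the block, 2 in both lines (3 with the block), 1 in Rh30 ΔRRM against sgCTL with or without the block, and 10 in ES8 ΔRRM against knockdown with the block, and the cause was not tested. An adjusted p under 0.01 left 9, 1, 5 and 0 for the ES8 knockdown, Rh30 ΔRRM against sgCTL, ES8 ΔRRM against knockdown and the interaction. Without the fold requirement Rh30 ΔRRM had 7 against sgCTL and 16 against knockdown. Over all genes this setting gave 5216 up and 5410 down of 15442 against sgCTL. Against knockdown it gave 4505 up and 4676 down of 15309. Neither count of members is thus read as a result about them. With the replicate block the ES8 knockdown had 16 calls, Rh30 11, both lines 8, Rh30 ΔRRM against sgCTL 4, ES8 ΔRRM against knockdown 12 and the host comparisons 6 in each line.

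Leaving out 1 library at a time gave 11 to 20 calls up and 0 to 1 down in ES8 (SNORD116-1, without sgDNAJC17 A), 11 to 15 up and 0 down in Rh30, 3 to 8 in both lines (3 without ES8 sgCTL C), 0 (ES8) and 0 to 4 (Rh30) for ΔRRM against sgCTL, 9 to 19 and 10 to 13 for ΔRRM against knockdown, 0 to 2 in the interaction, 12 to 15 between the lines, and 5 to 10 and 5 to 9 against hosts.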
